A study of Mus musculus with 6 samples.

Results

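The 10 genes described here belong to the tumour necrosis factor (TNF) system. They were measured in BV2, a mouse microglial cell line of C57BL/6 background that has been immortalised, with and without human apolipoprotein E4 in its full-length form (FL-ApoE4). The members were fixed by name, with earlier results of these data known, so their shares set against all genes are descriptions. All 10 are among the 40202 genes of the deposited table. They are the ligands Tnf, Tnfsf9 and Tnfsf12, the receptors Tnfrsf1a, Tnfrsf1b, Tnfrsf9 and Fas, and the receptor-associated proteins Traf1, Traf2 and Birc3. The control group held 3 libraries of untreated cells. The FL-ApoE4 group held 3 libraries of cells given 25 µg/ml of the protein, with an exposure of 5 h. A vehicle for the untreated cells, and separate cultures for the replicates, are not mentioned in the labels, so the p-values reflect the spread between these libraries alone, and that spread may be technical. All cells come from 1 line, and bulk RNA cannot tell fewer cells of a kind from less RNA per cell.

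TNF is an early cytokine of activated microglia and macrophages. It is made as a membrane protein, shed by the protease ADAM17, and bound by TNFR1 (Tnfrsf1a), which most cells carry and which has a death domain, and by TNFR2 (Tnfrsf1b), which myeloid cells carry and which recruits TRAF adaptors directly. TRAF2 brings the ubiquitin ligases cIAP1 and cIAP2 (Birc3) to these receptors, and the NF-kB pathway that follows induces Tnf, Traf1, Birc3 and Fas in many cell types. 4-1BB ligand (Tnfsf9) and its receptor 4-1BB (Tnfrsf9) are a costimulatory pair of the same family.

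The upstream sequences of Tnf and Tnfrsf1b are shown because these ligand and receptor genes were both high in 1 control library and yet differed in opposite directions between FL-ApoE4 and the other 2 controls. Each is the 250 bases before the RefSeq start (build GRCm38.p6, matched by symbol; the submitters' processing notes name GRCm39), at chr17:35202008-35202257, minus strand, for Tnf and chr4:145246871-145247120, minus strand, for Tnfrsf1b. Capitals mark matches to the TATA box (TATAAA) and the GC box (GGGCGG, here read on the opposite strand).
Tnf: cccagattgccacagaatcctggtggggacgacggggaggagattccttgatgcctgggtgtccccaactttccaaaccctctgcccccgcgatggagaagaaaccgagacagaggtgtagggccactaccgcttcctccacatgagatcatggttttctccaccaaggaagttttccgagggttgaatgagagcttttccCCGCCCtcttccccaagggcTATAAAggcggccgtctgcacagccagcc
Tnfrsf1b: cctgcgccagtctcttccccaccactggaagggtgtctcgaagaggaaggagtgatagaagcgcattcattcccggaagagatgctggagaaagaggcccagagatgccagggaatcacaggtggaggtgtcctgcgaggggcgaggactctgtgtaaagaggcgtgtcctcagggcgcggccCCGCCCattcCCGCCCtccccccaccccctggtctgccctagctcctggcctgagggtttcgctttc
Tnf has a TATA box 29 bases before its start and 1 GC box, and Tnfrsf1b has 2 GC boxes and no TATA box. Of 32851 mouse windows of this length, 12.4% hold the TATA box and 32.7% the GC box on either strand. The table holds windows for 8 of the 10 members. The kappaB consensus, searched on both strands and matched in 7.25% of all windows, occurred among them only in the second of 2 windows of Tnfrsf9, as 3 overlapping matches within GGGGATTTCCC, 43 to 33 bases before the start. The AP-1 site (TGANTCA, 6.75% of windows) occurred in Fas and in the same window of Tnfrsf9. The cAMP response element (TGACGTCA, 1.55% of windows) matched none. These matches describe the letters only. Bases outside these windows, and sites that differ from the letters searched, were not covered, so a window without a match does not mean a gene without such sites.

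Libraries held 45700128 to 54965393 assigned reads, and the counting SD was at most 5.28% of a library's value for 8 of the 9 detected members. Tnfrsf9 had 101 to 151 reads per library, a counting SD of 8.14% to 9.95%. This exceeds the spread of its FL-ApoE4 libraries (4.63%) and lies below that of its controls (19.5%). Depth therefore limits this member in part, and the control spread is larger than counting error. The counting SD covers counting error only. Control replicate 1 stood apart from control replicates 2 and 3, with a chi-square of 64.1 and 71.9 per tested gene against 4.85 between those 2, while its share of reads on mitochondrial protein genes (1.69%) lay within that of the other controls (1.67% and 1.70%). FL-ApoE4 replicate 1 also stood apart, at 21.4 and 19.9 against 4.39 between FL-ApoE4 replicates 2 and 3. Between groups, control replicates 2 and 3 differed from FL-ApoE4 replicates 2 and 3 by 13.8 to 21.2, a similar size. They differed from FL-ApoE4 replicate 1 by 32.4 and 34.6. Results are therefore given with and without control replicate 1. The fit without it rests on the 2 most alike controls, so its p-values may be too small. Of 14 microglia and macrophage markers 13 were detected at a mean of at least 10 normalised reads, P2ry12 was listed at 0, and the summed level of the list was 4215 to 4338 RPM (assigned reads scaled to a common library total, as in CPM) in controls and 4731 to 4880 with FL-ApoE4. Markers of fibroblasts summed to at most 0.164, of B cells to at most 0.788, of T and NK cells to at most 4.03, of astrocytes to at most 2.46 and of neurons to at most 1.72 RPM. The oligodendrocyte and endothelial lists, carried by Mbp and Kdr, summed to 22.8 to 25.4 and 56.8 to 93.7. The part of these differences in the results below was not tested.

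With all 6 libraries no member passed limma's test at an adjusted p under 0.05 (0 of 9 tested, where the same test called 0% of 14079 genes and gave 13.1% an unadjusted p under 0.05). The ranges of both groups were separate for 4 of 9 members, against 21.9% of all genes. Tnf, Tnfsf9 and Birc3 were lower and Tnfrsf1a was higher in every FL-ApoE4 library than in every control. Without control replicate 1, Tnf and Tnfsf9 fell and Tnfrsf1b rose (3 of 9 called, against 4.62% of all genes; 2.93% were called higher and 1.69% lower). In edgeR without that library the same 3 were called, against 4.82% of all genes (2.99% higher and 1.83% lower). DESeq2 without it added Tnfrsf1a, against 6.81% of all genes (3.86% higher and 2.95% lower), as did limma without replicate 1 of both groups, against 12.6% (7.02% higher and 5.53% lower). The ligands and the TNFR2 gene thus differed from the 2 similar controls in opposite directions.

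**Figure D1:**
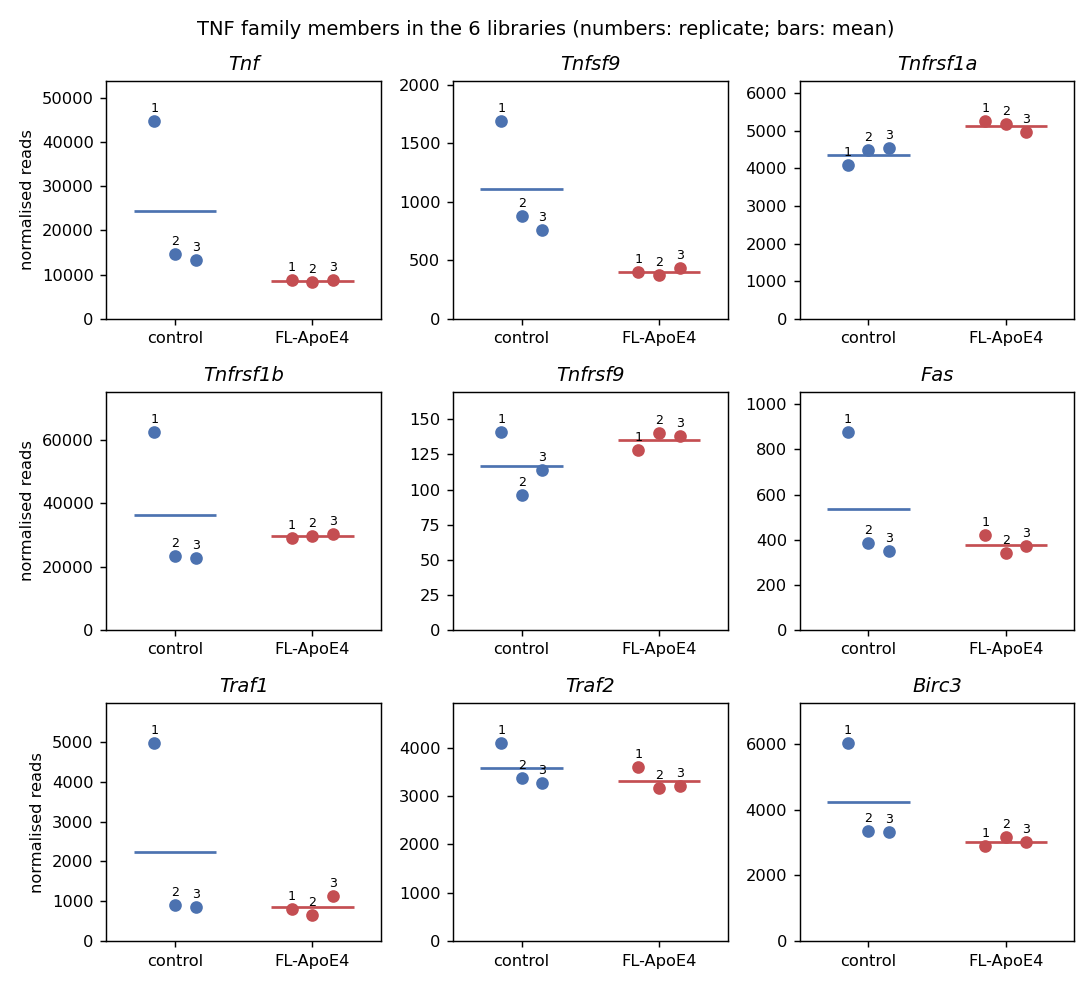
Normalised reads (y axis, linear, from 0) of the 9 detected members in the 3 control and 3 FL-ApoE4 libraries; each point is a library with its replicate number, and bars are group means. Control replicate 1 is the highest of the 6 libraries for 8 of the 9 genes and the lowest for Tnfrsf1a, while the FL-ApoE4 libraries lie close together for most genes.

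Among the ligands, Tnf, which encodes the cytokine itself, was at 44899, 14765 and 13289 normalised reads in control replicates 1 to 3 and at 8727, 8247 and 8703 in the treated replicates 1 to 3. All FL-ApoE4 libraries lay below all controls, and the first control was 3.20 times the mean of the other 2. The FL-ApoE4 mean of 8559 ± 270.3 (SD, n = 3) was 35.2% of the control mean of 24318 ± 17840 and 61.0% of the mean of control replicates 2 and 3. On the log2 scale the difference was -1.27 ± 0.41 (SE; limma adjusted p = 0.261) and -0.71 ± 0.06 without control replicate 1 (adjusted p = 0.000841). The size of the decrease thus depends on that library, and its direction does not.

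Tnfsf9, which encodes 4-1BB ligand, was at 1694, 876 and 755 normalised reads in control replicates 1 to 3. Its 3 FL-ApoE4 libraries were at 400.5, 375 and 433. These lay below all controls, and the first control was 2.08 times the mean of the other 2. The log2 difference was -1.37 ± 0.27 (limma adjusted p = 0.136) and -1.02 ± 0.10 without control replicate 1 (adjusted p = 0.00144), when the FL-ApoE4 mean was 49.4% of the control mean. DESeq2 called this gene with all 6 libraries (adjusted p = 5.76e-06), the 1 member of 9 that it called, against 2.77% of all genes (1.40% higher and 1.37% lower), and edgeR did not (adjusted p = 0.134). In the annotation 14.9% of its exon bases lie opposite those of Gm11110, and the strand setting of the counting is not given in the sources used here. Gm11110 itself was at 405 to 484 normalised reads in controls and at 375 to 435 with FL-ApoE4, ranges that overlap.

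Tnfsf12, which encodes TWEAK, was listed at 0 in all 6 libraries. In GENCODE M21 48.3% of its exon bases are shared, on the same strand, with the joint transcript Tnfsfm13, which was also listed at 0, as was the ligand gene Tnfsf13, which shares bases with the same transcript. The 0 is therefore reported only as listed. The TWEAK receptor gene Tnfrsf12a was detected and is described with the other receptors.

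Among the receptors, Tnfrsf1a, which encodes TNFR1, was at 4083, 4489 and 4543 normalised reads in controls and at 5274, 5173 and 4983 with FL-ApoE4. It was the 1 detected member with its lowest value in control replicate 1, and all FL-ApoE4 libraries lay above all controls. The FL-ApoE4 mean was 1.18 times that of controls, with a log2 difference of 0.24 ± 0.06 (limma adjusted p = 0.190) and of 0.19 ± 0.05 without control replicate 1 (adjusted p = 0.0749). Without replicate 1 of both groups the value was 0.17 (limma adjusted p = 0.0116). DESeq2 called Tnfrsf1a without control replicate 1 (adjusted p = 0.0316), and with all 6 libraries it narrowly missed the threshold (DESeq2 adjusted p = 0.05001).

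Tnfrsf1b, which encodes TNFR2, was at 62658, 23452 and 22856 normalised reads in controls and at 29135, 29726 and 30234 with FL-ApoE4. The FL-ApoE4 libraries lay close together, below control replicate 1 and above the other 2 controls. The log2 difference over all libraries was -0.12 ± 0.35 (limma adjusted p = 0.931). Without control replicate 1 the sign turned and the gene rose by 0.36 ± 0.04 (adjusted p = 0.00372), to 128% of the mean of control replicates 2 and 3.

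Tnfrsf9, which encodes 4-1BB, was among the least abundant members, at 141, 95.8 and 114 normalised reads in controls and 128, 140.0 and 138 with FL-ApoE4. The groups overlapped because of control replicate 1. The log2 difference was 0.23 ± 0.16 (limma adjusted p = 0.602), and 0.37 ± 0.13 without that library (adjusted p = 0.177). Fas, which encodes a death receptor, was at 879, 384 and 351 in controls and 422, 342 and 371 with FL-ApoE4. Beyond control replicate 1 its groups overlapped, with a log2 difference of -0.38 ± 0.32 (adjusted p = 0.675) and of 0.04 ± 0.11 without it (adjusted p = 0.888).

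Because Tnf and Tnfrsf1b were both raised in control replicate 1, the ratio of each ligand to its receptor was taken within a library, where scaling cancels. The 3 pairs were chosen after the values were seen. The ratio of Tnf to Tnfrsf1b was 0.717, 0.630 and 0.581 in controls and 0.300, 0.277 and 0.288 with FL-ApoE4. On the log2 scale these differed by -1.15, and by -1.07 without control replicate 1. Control replicate 1 lay near the other controls in this ratio, and the groups were far apart relative to their spread (SD 0.15 and 0.06 on the log2 scale). The ratio of Tnf to Tnfrsf1a was 11, 3.29 and 2.93 in controls and 1.65, 1.59 and 1.75 with FL-ApoE4. That of Tnfsf9 to Tnfrsf9 was 12, 9.15 and 6.62 in controls and 3.12, 2.68 and 3.13 with FL-ApoE4. The log2 differences were -1.51 and -1.60, and -0.90 and -1.39 without control replicate 1. None of the 3 ratios overlapped between groups. Each had a two-sided exact permutation p of 0.1 (0.1 after Benjamini-Hochberg adjustment over 3). This is the smallest that 20 regroupings of 3 against 3 libraries allow. Tnf and Tnfsf9 alone were already lower in every FL-ApoE4 library than in every control. The separation of the ratios therefore adds no support, and the share of other gene pairs that separate was not computed.

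**Figure D2:**
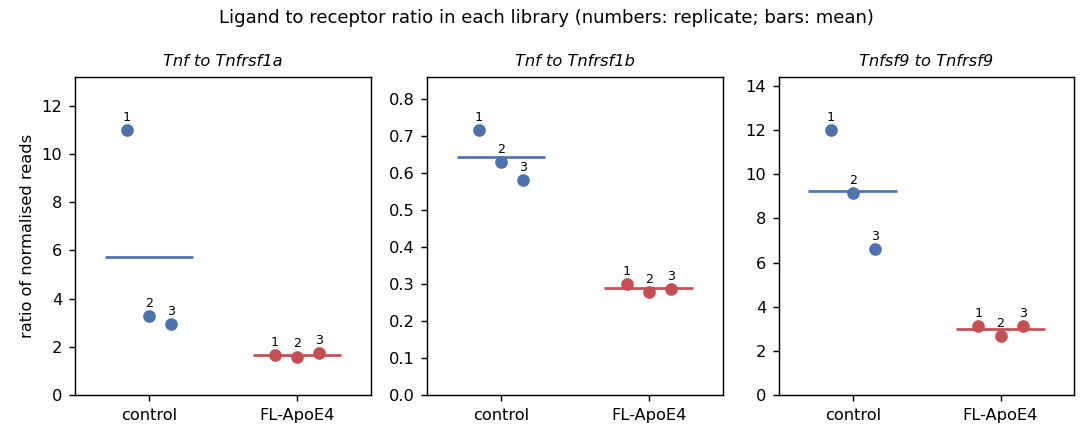
Ratio of normalised reads of ligand to receptor (y axis, linear, from 0) in each library of the control and FL-ApoE4 groups; points carry the replicate number and bars are group means. All FL-ApoE4 libraries lie below all controls in each pair, and for Tnf to Tnfrsf1b the 3 controls lie between 0.581 and 0.717.

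Among the receptor-associated genes, Traf1, which encodes an adaptor that pairs with TRAF2, departed most in control replicate 1. It was at 4977, 909 and 849 normalised reads in controls and at 796, 654 and 1137 with FL-ApoE4, so that the first control was 5.66 times the mean of the other 2. The log2 difference of -0.90 ± 0.64 (limma adjusted p = 0.607) became -0.06 ± 0.19 without that library (adjusted p = 0.887). The FL-ApoE4 libraries then lay on both sides of the remaining controls.

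Traf2, the adaptor shared by most of these receptors, was at 4102, 3377 and 3263 normalised reads in controls and 3593, 3164 and 3203 with FL-ApoE4. Its groups overlapped, with a log2 difference of -0.10 ± 0.10 (limma adjusted p = 0.717) and of -0.0021 ± 0.07 without control replicate 1. Birc3, which encodes cIAP2, was at 6039, 3338 and 3323 in controls and 2907, 3158 and 3021 with FL-ApoE4. All FL-ApoE4 libraries were below all controls, but the difference from control replicates 2 and 3 was small: the log2 value was -0.42 ± 0.22 (adjusted p = 0.455) with all libraries and -0.14 ± 0.06 without control replicate 1 (adjusted p = 0.217).

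**Figure D3:**
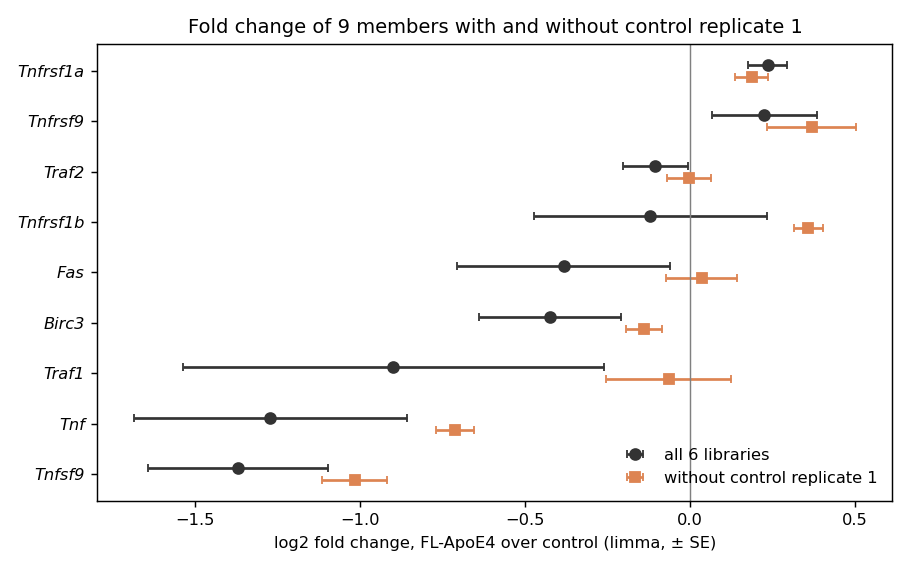
Log2 fold change of FL-ApoE4 over control (x axis; limma, bars are ± SE) for the 9 detected members, with all 6 libraries (circles) and without control replicate 1 (squares). Tnf and Tnfsf9 stay below 0 in both, Tnfrsf1b moves from -0.12 to 0.36, and Traf1, Fas and Traf2 move to near 0.

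Levels of different genes were compared per length, as RPKM (RPM per kilobase of exon). With FL-ApoE4, Tnfrsf1b was the most abundant member at 153 ± 2.89 RPKM (SD, n = 3), followed by Tnf at 102 ± 3.23 and Tnfrsf1a at 39.0 ± 1.10. Traf2 (12.8 ± 0.908) and Birc3 (11.9 ± 0.496) had overlapping libraries. Tnfsf9 (6.12 ± 0.444), Fas (3.60 ± 0.382), Traf1 (1.92 ± 0.553) and Tnfrsf9 (0.976 ± 0.0455) followed in that order with no overlap between neighbours. In controls the first 2 places were exchanged: Tnf was at 517, 178 and 159 RPKM and Tnfrsf1b at 310, 121 and 118 in control replicates 1 to 3. Tnf thus exceeded Tnfrsf1b per length in each of 3 controls and was below it in each of 3 FL-ApoE4 libraries. This restates the ratio of the same genes given above, and where the order changes depends on the GENCODE M21 exon lengths used.

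The departure of control replicate 1 was large among the members, which were chosen with earlier results known, and smaller in the rest of the family. On the log2 scale it lay above control replicates 2 and 3 by 2.50 for Traf1, 1.68 for Tnf, 1.44 for Tnfrsf1b, 1.26 for Fas, 1.06 for Tnfsf9 and 0.86 for Birc3, while the median over all tested genes was -0.0032. The median was 1.06 over the tested members. Over the 7 lists described below, the medians lay between -0.14 (other ligands) and 0.19 (death-receptor arm), with -0.010 for the other receptors. At least 1.5 times the other controls was reached by 6 of 9 members and by 15 of 77 tested list genes, against 6.39% of all genes. Control replicate 1 thus stood out in part of the family only. That library was the highest of the 6 for 8 of 9 members, against 25.7% of all genes. Relative to the other 2 controls, the 6 members that reached 1.5 times then divided. Tnf and Tnfsf9 fell with FL-ApoE4, Tnfrsf1b rose, and Birc3 (-0.14), Fas (0.04) and Traf1 (-0.06) did not pass the test.

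**Figure D4:**
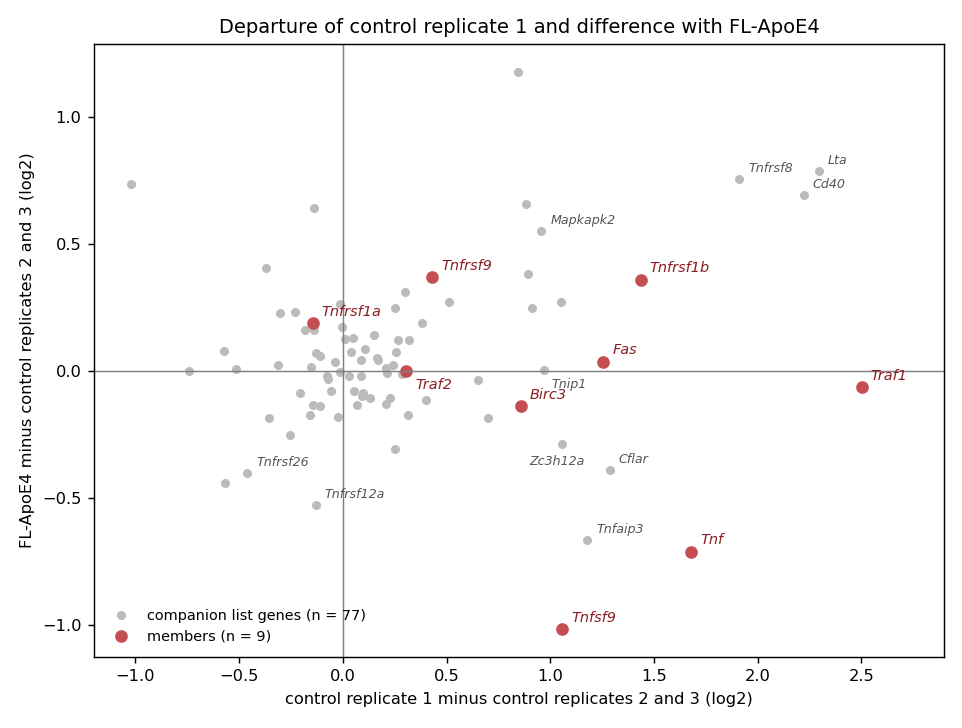
Log2 difference of control replicate 1 from control replicates 2 and 3 (x axis) and of the FL-ApoE4 group from the same 2 controls (y axis) for 9 members (red) and 77 tested genes of the companion lists (grey). Both axes share those 2 controls; genes far to the right, which were high in control replicate 1, lie both above 0 (Tnfrsf1b, Cd40, Tnfrsf8) and below 0 (Tnf, Tnfsf9, Tnfaip3).

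The rest of the pathway was followed in 7 lists of 99 genes, of which 77 were tested. With all 6 libraries 0 list genes were called by limma or by edgeR, while DESeq2 called 5 of 77 (background 2.77%): Tnfsf13b, Tnfrsf13b and Relt higher, and Tnfrsf12a and Rc3h1 lower. Without control replicate 1, 5 rose and 6 fell (limma; background 2.93% and 1.69% of all genes). Of 15 list genes at least 1.5 times as high in control replicate 1, 3 rose and 3 fell, where of 899 such genes overall 16.1% rose and 5.90% fell. The lists were drawn up with earlier results of these data known, and each count is a description.

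Of 15 other ligands of the superfamily 8 were tested, 7 of them with positive values, and the median log2 difference was 0.29 (0.52 without control replicate 1), against 0.0011 (0.00086) over all tested genes. In both limma fits 0 of them were called, and 3 had an unadjusted p under 0.05 with all 6 libraries. Apart from Tnfsf13b, the tested ligands lay between 3.35 (Eda, FL-ApoE4 replicate 1) and 74.9 (Lta, control replicate 1) normalised reads. Depth therefore limits these ligands and the median of the list. Tnfsf13b, which encodes the B cell survival factor BAFF and was the most abundant of the list at 0.876 RPKM, was at 211, 250.4 and 298 normalised reads in controls and 368, 352 and 366 with FL-ApoE4 (log2 difference 0.53 ± 0.13, limma adjusted p = 0.190). Tnfsf14, which encodes LIGHT, was at 30.4, 28.5 and 39.6 normalised reads in controls and 56.9, 48.2 and 53.8 with FL-ApoE4 (0.69 ± 0.19, adjusted p = 0.217). These 2 had the lowest p of the list, missed limma's threshold and did not overlap between groups. DESeq2 called Tnfsf13b with all 6 libraries (adjusted p = 0.0320) and not Tnfsf14 (adjusted p = 0.260). Lta, the lymphotoxin alpha gene and neighbour of Tnf, was at 74.9, 17.1 and 12.2 normalised reads in controls and 35.7, 18.5 and 25.5 with FL-ApoE4, with groups that overlapped through control replicate 1.

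Of 24 other receptors 14 were tested, with 8 positive and 6 negative values and a median of 0.10 (0.20 without control replicate 1). The TWEAK receptor gene Tnfrsf12a, which encodes Fn14, was at 1169.7, 1286 and 1276 normalised reads in controls and 940.4, 783 and 952 with FL-ApoE4. Its controls lay close together and above all FL-ApoE4 libraries. The log2 difference was -0.48 ± 0.09 (limma adjusted p = 0.129), DESeq2 called the gene lower with all 6 libraries (adjusted p = 0.000922), and leaving out control replicate 1 gave a decrease of 0.53 in limma (adjusted p = 0.0160). Tnfrsf13b, which encodes the BAFF receptor TACI, was at 1293, 1305 and 1311 normalised reads in controls and 1663, 1558 and 1489.8 with FL-ApoE4 (0.27 ± 0.06, limma adjusted p = 0.174, DESeq2 adjusted p = 0.0357). Relt, a further receptor gene, was at 1157.7, 1317 and 1398 in controls and 1586, 1611 and 1583 with FL-ApoE4 (0.31 ± 0.08, limma adjusted p = 0.198, DESeq2 adjusted p = 0.0481). Ltbr, the lymphotoxin beta receptor gene, was the most abundant of the list at 26.1 RPKM, with a log2 difference of 0.12 ± 0.05 (adjusted p = 0.372).

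Like Tnfrsf1b, the receptor genes Cd40 and Tnfrsf8 were highest in control replicate 1 and otherwise higher with FL-ApoE4. Cd40, a costimulatory receptor of myeloid cells, was at 9793, 2209 and 1997 normalised reads in controls and 3567, 3372 and 3241 with FL-ApoE4. Tnfrsf8, which encodes CD30, was at 1361, 354 and 368 normalised reads in controls and 586, 627 and 618 with FL-ApoE4. With all 6 libraries their log2 differences were -0.05 ± 0.55 and 0.12 ± 0.47 (limma adjusted p = 0.983 and 0.951), and without control replicate 1 they rose by 0.69 (adjusted p = 0.00144) and 0.75 (adjusted p = 0.00210). Tnfrsf26, also a receptor gene, fell by 0.40 in the same fit (adjusted p = 0.0112). With all 6 libraries its value was -0.25 ± 0.13 (adjusted p = 0.463), and control replicate 1, at 1173 normalised reads, lay below the other controls and below all FL-ApoE4 libraries (1178 to 1288).

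Of 11 other TRAF adaptors, IAPs and partners 10 were tested, with 5 positive and 5 negative values and a median of -0.04. Limma called 0 of them in either fit, edgeR called 0 with all 6 libraries, and 2 had an unadjusted p under 0.05. Birc2, which encodes cIAP1, was at 1464, 1236 and 1122 normalised reads in controls and 1035, 1044 and 1051 with FL-ApoE4 (log2 difference -0.28 ± 0.10, limma adjusted p = 0.294). Map3k14, which encodes the kinase NIK that cIAPs and TRAFs hold down, was at 885, 969 and 1042 normalised reads in controls and 1082, 1204 and 1088 with FL-ApoE4 (0.22 ± 0.08, adjusted p = 0.322). Both had groups that did not overlap and missed the threshold. Tank, an adaptor gene and the most abundant of the list at 16.1 RPKM, had a log2 difference of -0.42 ± 0.18 (adjusted p = 0.381).

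All 20 genes of the receptor signalling complex were tested, with 14 negative and 6 positive values and a median of -0.05 (-0.0071 without control replicate 1). The lowest value, -1.06, was that of Tnfaip3, which encodes A20, a ubiquitin-editing brake on this complex. It was at 14554, 6757 and 6126 normalised reads in controls and 3715, 3981 and 4518 with FL-ApoE4, with no overlap. The log2 difference was -1.06 ± 0.30 (limma adjusted p = 0.219), and without control replicate 1 Tnfaip3 fell by 0.66 (adjusted p = 0.00396), the 1 call in this list. Chuk, the IKK-alpha gene, differed by -0.12 ± 0.05 (adjusted p = 0.384). Tnip1, the most abundant at 74.6 RPKM, encodes an A20 partner and was at 22899, 11783 and 11594 normalised reads in controls and 11802, 11830.0 and 11557 with FL-ApoE4, so that only control replicate 1 stood out.

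In the death-receptor arm 8 of 9 genes were tested and Ripk3 was listed at 0 in all 6 libraries, which is reported only as listed. Cflar, which encodes the caspase-8 inhibitor c-FLIP, was at 12735, 5382 and 5067 normalised reads in controls and 3584, 3968 and 4455 with FL-ApoE4. All FL-ApoE4 libraries lay below all controls, and without control replicate 1 the gene fell by 0.39 (limma adjusted p = 0.0396), against -0.82 ± 0.32 with all 6 libraries (adjusted p = 0.343). Fadd, the adaptor gene of this arm, differed by -0.18 ± 0.08 (adjusted p = 0.398), and Bid, the most abundant at 40.9 RPKM, by -0.01 ± 0.08 (adjusted p = 0.972).

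Of 8 genes for TNF shedding and processing 6 were tested and Timp3 was listed at 0, which is reported only as listed. Adam17, the TNF sheddase gene and the most abundant at 45 RPKM, was at 20052, 13984 and 14139 normalised reads in controls and 16239.7, 17466 and 17153 with FL-ApoE4, and without control replicate 1 it rose by 0.27 (limma adjusted p = 0.0191), against 0.10 ± 0.13 with all 6 libraries (adjusted p = 0.825). Sppl2a, which encodes a protease that cuts the membrane stub of TNF, rose by 0.25 in that fit (adjusted p = 0.0201). With all 6 libraries the lowest p of the list belonged to Sppl2a (0.17 ± 0.07, adjusted p = 0.409) and Rhbdf2 (-0.25 ± 0.17, adjusted p = 0.573), and neither passed.

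Of 12 regulators of Tnf mRNA 11 were tested, and Zfp36, which encodes the destabilising protein tristetraprolin, was listed at 0 in all 6 libraries. In the annotation 3.60% of its exon bases lie opposite those of Gm44710. As for Tnfsf12, the 0 is reported only as listed, and absence of the RNA was not tested. Rc3h1, which encodes the decay factor Roquin-1, was at 4609, 3873 and 3877 normalised reads in controls and 2913, 3238 and 3254 with FL-ApoE4, with no overlap (log2 difference -0.39 ± 0.08, limma adjusted p = 0.155), and DESeq2 called it lower with all 6 libraries (adjusted p = 0.00600). It fell without control replicate 1, by 0.31 (adjusted p = 0.0295), as did Zc3h12a, which encodes the RNase Regnase-1, by 0.29 (adjusted p = 0.0330). Control replicate 1 was 2.08 times the other controls for Zc3h12a, and with all 6 libraries its value was -0.64 ± 0.26 (adjusted p = 0.360). Zfp36l2, a relative of Zfp36, differed by 0.33 ± 0.09 (adjusted p = 0.210). Mapkapk2, which encodes a kinase that promotes TNF output, was the most abundant at 330.5 RPKM. It was at 72077, 37415 and 36908 normalised reads in controls and 57749, 53858 and 51756 with FL-ApoE4, with groups that overlapped. The log2 difference was 0.23 ± 0.24 with all 6 libraries (adjusted p = 0.752), and without control replicate 1 the gene rose by 0.55 (adjusted p = 0.00194). Of the limma calls without that library 2 were thus lower and 1 higher.

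**Figure D5:**
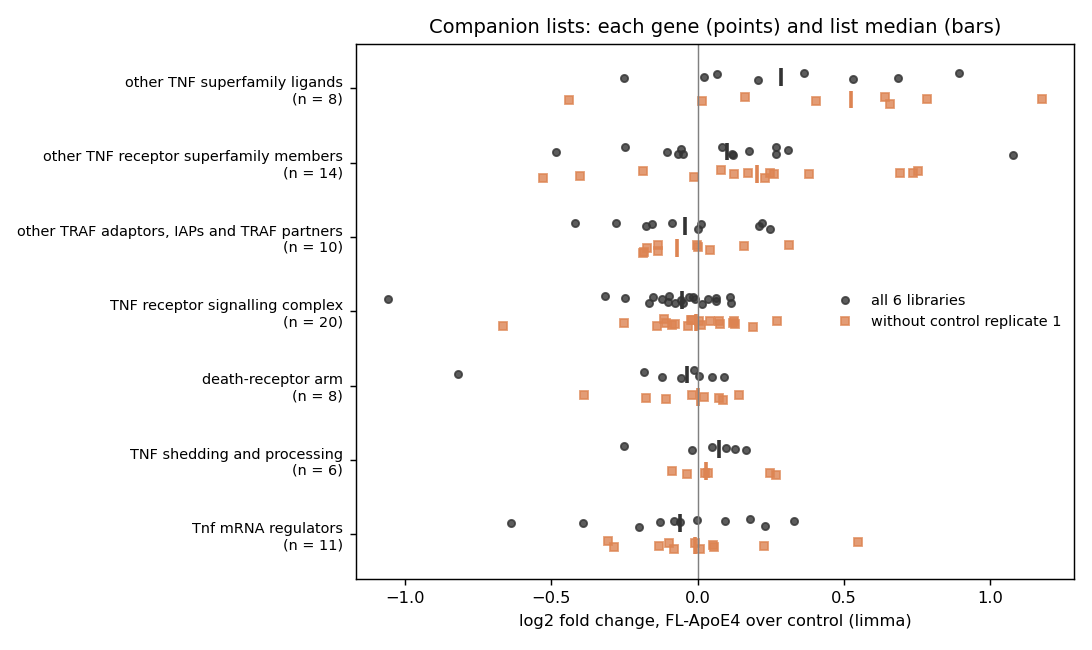
Log2 fold change of FL-ApoE4 over control (x axis; limma) for each tested gene (points) of the 7 companion lists (rows), with all 6 libraries (dark circles) and without control replicate 1 (orange squares); bars are list medians. List medians lie between -0.07 and 0.52 in the 2 fits, and Tnfaip3 and Cflar lie apart from their lists at -1.06 and -0.82 with all 6 libraries.

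Among 10817 genes with a mean of at least 100 normalised reads, those whose log2 values over the 6 libraries were among the most like Tnf were Cdk5r1 (Pearson r = 0.998), Mphosph10 (0.998) and Nlrp3 (0.998). Those most like Tnfsf9 were Rab20 (1.00), Ppm1a (0.996), Pde4b (0.995) and Gdf15 (0.994). These are descriptions over 6 libraries in which control replicate 1 was the highest point for each of these genes. Nlrp3, an inflammasome sensor gene, was at 30278, 10463 and 10365 normalised reads in controls and 6645, 6833 and 7089 with FL-ApoE4. Gdf15, a stress cytokine gene, was at 5501, 2235 and 1919 normalised reads in controls and 775, 749 and 1088 with FL-ApoE4.

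In the authors' deposited table of statistics, Tnfsf9 was the 1 member with an adjusted p under 0.05 (log2 fold change -1.46, adjusted p = 5.03e-06), where that table called 2.85% of the 12897 genes with an adjusted p (1.33% were called lower). The authors' deposited table gave Tnfrsf1a a log2 fold change of 0.23 at an adjusted p of 0.0531 and Tnf one of -1.51 at 0.195.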

How the data were processed

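Total RNA of 6 BV2 samples was sequenced. The submitters' processing notes name FastQC 0.11.8, HISAT2 2.2.1, HTSeq, DESeq2 1.30.1 and build GRCm39; which tool did which step, and with which settings, is not given in the sources used here. Deposited values are a normalised signal for each gene in each library, on a linear scale. Dividing a column by its smallest value above 0 gave whole reads (tolerance 0.01) for 100% of values. A log2 fold change is given for each gene in the authors' deposited table of statistics. That deposited table also gives each gene's p-value, raw and adjusted.

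The main test was two-sided and used limma 3.58.1 in R 4.3.3, with group as the only term and the trend option, on log2(value + 1) of the 14079 genes with a mean of at least 10. Benjamini-Hochberg adjustment covered all of them. Fold changes are on the log2(value + 1) scale, which understates those of low genes. As alternatives, edgeR 4.0.16 (quasi-likelihood, TMM) and DESeq2 1.42.0 took the recovered reads as input. Other alternatives changed the pseudocount, filter or scaling, added a replicate block or left libraries out; fits that left libraries out tested the same genes. The tests were checked on simulated data with the same spread in all 6 libraries and no library that stood apart. That check therefore does not cover a departure like that of control replicate 1. RPKM used the recovered reads and exon lengths of GENCODE M21.

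The members and lists were chosen with earlier results of these data known. The text names the members, the 2 genes of lowest p in each list and its most abundant gene per length, and the 4 genes most like Tnf and Tnfsf9 (Pearson, mean of at least 100), of which 1 is not reported here. Chosen outside that rule, with values in view, were Cd40, Tnfrsf8, Tnfrsf26, Relt, Zc3h12a, Lta, Gm11110, Mbp, Kdr and the genes listed at 0. For the genes listed at 0, absence of the RNA was not tested.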

Additional observations from a re-analysis of the deposited data

How the results depend on the processing

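The number of called genes was 0 by limma with all 6 libraries. It was 0 with either pseudocount, with TMM scaling, quantile normalisation or a mean of at least 50, and by edgeR; it was 1 without a filter beyond a mean above 0 and 390 by DESeq2. Leaving out each library gave 0 to 651, the highest without control replicate 1. Without replicate 1 of both groups (2 against 2) it was 1767, and without control replicate 1 it was 679 by edgeR and 959 by DESeq2. The number of members called was 0 by limma, 1 by DESeq2, 0 to 3 with each library left out (3 without control replicate 1), 4 without replicate 1 of both groups, and 3 by edgeR and 4 by DESeq2 without control replicate 1. Tnf, Tnfsf9, Tnfrsf1a, Tnfrsf9, Traf1 and Birc3 kept their sign in every setting run. With each library left out, Tnfrsf1b ranged from -0.37 to 0.36 and Fas from -0.62 to 0.036. Tnfrsf1b turned positive without control replicate 1 (0.36 by limma, 0.36 by edgeR and 0.36 by DESeq2) and without replicate 1 of both groups (0.37). Fas turned to 0.036 by limma, 0.041 by edgeR and 0.035 by DESeq2, and Traf2 to 0.0032 by edgeR, all without control replicate 1; the cause of its departure was not tested. With the replicate block 0 genes and 0 members were called (limma; 2177 genes had an unadjusted p under 0.05, against 1850 without it). Deviations of same-numbered libraries from their group means correlated at 0.13, 0.068 and -0.026 across genes. Control replicates 1 and 2 each correlated best with the FL-ApoE4 library of the same number, and control replicate 3 with FL-ApoE4 replicate 2. Deviations from a mean of 3 libraries depend on each other, so these values cannot settle whether equal numbers pair the samples. With 2 controls left, p-values rest on how alike those are. Depth limits Tnfrsf9 in part: its counting SD (8.14% to 9.95%) exceeds the spread of its FL-ApoE4 libraries and lies below that of its controls (19.5%).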
